A study of Caenorhabditis elegans with 33 samples.

Results

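Transcripts of 33 autophagy genes were followed in whole adult Caenorhabditis elegans of 4 strains, each fed 3 kinds of RNAi bacteria. The genes were taken by name from a fixed list of 34, and 33 of those names were found among the 17907 genes of the counts table. The name not found was atg-11. The gene that other sources also call atg-11, the scaffold of the FIP200 family, is listed there as epg-7, which the choice by name does not include. All 33 genes passed the filter on low counts.

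In autophagy, a double membrane grows around part of the cytoplasm, closes to form an autophagosome, and fuses with lysosomes, where the content is broken down. A kinase complex starts the process, a lipid kinase complex marks the site, lipid transfer proteins and ATG-9 supply membrane, and ubiquitin-like proteins of the LC3 and GABARAP families are joined to lipid on the growing membrane. Cargo receptors bring in material, and RAB-7, the HOPS tether and EPG-5 act in the fusion with lysosomes. In C. elegans, autophagy genes are known to be needed for the long life of eat-2 mutants, whose weak pharyngeal pumping is used as a model of dietary restriction. The transcription factors HLH-30, PHA-4 and DAF-16 are known to act on autophagy genes in this animal.

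The strains were N2 (wild type), mxl-2(tm1516), eat-2(ad465) and eat-2(ad465);mxl-2(tm1516), the last called the double mutant from here on. mxl-2 encodes the partner of MML-1 in the worm's Myc-like transcription factor complex. Every strain was fed HT115 E. coli carrying the empty vector L4440 (EV) or making double-stranded RNA against daf-16 or pha-4. All 12 groups were hermaphrodites treated with FUdR (4 mg/mL) from the L4 stage, kept at 16 °C until L4 and at 20 °C afterwards, and collected on day 2 of adulthood as populations of about 3000 animals. Each mutant strain carries its mutations in all cells. RNA from whole animals mixes all tissues and the germ line, so fewer cells of a type and less RNA per cell cannot be told apart. There were 3 libraries in each group, except for the 3 eat-2 groups with 2 libraries each, which makes 33 in all. The submitters describe each replicate as a separate synchronized population.

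The libraries held 20.2 to 31.5 M counts (M, 1e6 reads counted to genes; median 28.0 M), of which the 33 genes took 0.157% to 0.534%. Several libraries stand apart or go against their labels. In the eat-2 strain, EV replicates 1 and 2 differed by a mean of 0.964 log2 units over the 33 genes, and daf-16 RNAi replicates 1 and 2 by 1.05. EV replicate 1 and daf-16 RNAi replicate 2 differed by only 0.187, and EV replicate 2 and daf-16 RNAi replicate 1 by 0.221. The 28 replicate pairs of the other groups differed by 0.104 to 0.845 (median 0.249). In mxl-2, daf-16 RNAi replicate 2 differed from replicates 1 and 3 by 0.845 and 0.819, and these from each other by 0.147. In the double mutant, daf-16 RNAi replicate 2 differed from replicates 1 and 3 by 0.636 and 0.623, and these from each other by 0.242. Its deposited TPM values fell 9.78% short of 1e6, those of the other libraries 1.24% to 3.99%. EV replicate 2 and daf-16 RNAi replicate 1 of the eat-2 strain are called the 2 eat-2 libraries that stand apart. They were set apart by their values in these same 33 genes. A fit without both leaves 1 eat-2 library on EV and 1 on daf-16 RNAi, so its results are no independent support. In eat-2, daf-16 itself stood at 115.5 and 45.0 CPM (counts scaled to library size, per 1e6) in EV replicates 1 and 2 and at 32.4 and 69.6 CPM in daf-16 RNAi replicates 1 and 2. In the other strains daf-16 was lower in every daf-16 RNAi library than in every EV library. In the libraries labelled double mutant, pha-4 was 3.83 ± 0.496 CPM on EV and 10.4 ± 2.54 CPM on pha-4 RNAi (SD, n = 3), which is the reverse of what those labels say; feedings of the double mutant are named below as labelled. In N2 pha-4 was 14.01 ± 4.34 and 5.07 ± 0.697 CPM. mxl-2 transcripts stood at 2.79 to 8.32 CPM in both strains with the tm1516 deletion and at 25.7 to 82.3 CPM in the other strains. In mxl-2, 4 of the 9 libraries had a mean log2 CPM of -2.06 to -0.75 over 31 major sperm protein genes, and the other 5 had 4.44 to 5.59. The library numbers in the labels run from 49 to 57 for the double mutant and from 1 to 27 for the other strains, so that a batch, if these numbers mark one, cannot be told apart from that strain.

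Compared per transcript length, in the length-corrected unit TPM, lgg-1 was by far the most abundant of the 33 genes in N2 on EV. lgg-1 encodes the GABARAP-type protein that is joined to lipid, and it reached 2048 ± 382 TPM (SD, n = 3). Its LC3-type relative lgg-2 followed with 175 ± 5.55 TPM, the late endosome GTPase gene rab-7 with 160 ± 20.7 TPM, the p62-type cargo receptor gene sqst-1 with 94.9 ± 3.82 TPM, and the WIPI-type gene atg-18 with 88.8 ± 5.55 TPM. The values of rab-7 and lgg-2 lie within their spread of each other, and so do those of sqst-1 and atg-18. At the other end stood epg-5, a tether for fusion, with 3.72 ± 0.827 TPM, the HOPS subunit gene vps-41 with 4.40 ± 0.897 TPM, and atg-10, the E2-like enzyme gene for LGG-3, with 6.43 ± 0.586 TPM. The SD of log2 CPM over the 33 libraries had a median of 0.46 in the 33 genes and of 0.68 in all 17354 genes tested. All genes tested were not matched to the 33 for level. The highest CPM of a gene over its lowest ran from 1.78 for vps-34 to 11.7 for epg-5. The least variable was vps-34, the lipid kinase gene (SD 0.18), and the most variable were atg-2, a lipid transfer protein gene (0.92), epg-5 (0.87), and epg-2, a nematode scaffold for the removal of P-granule proteins (0.79). The share of this variance that lay between the 12 groups ran from 18.2% for vps-34 to 85.4% for atg-2 and 88.0% for atg-4.2, which encodes a protease that processes LGG proteins.

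**Figure D1:**
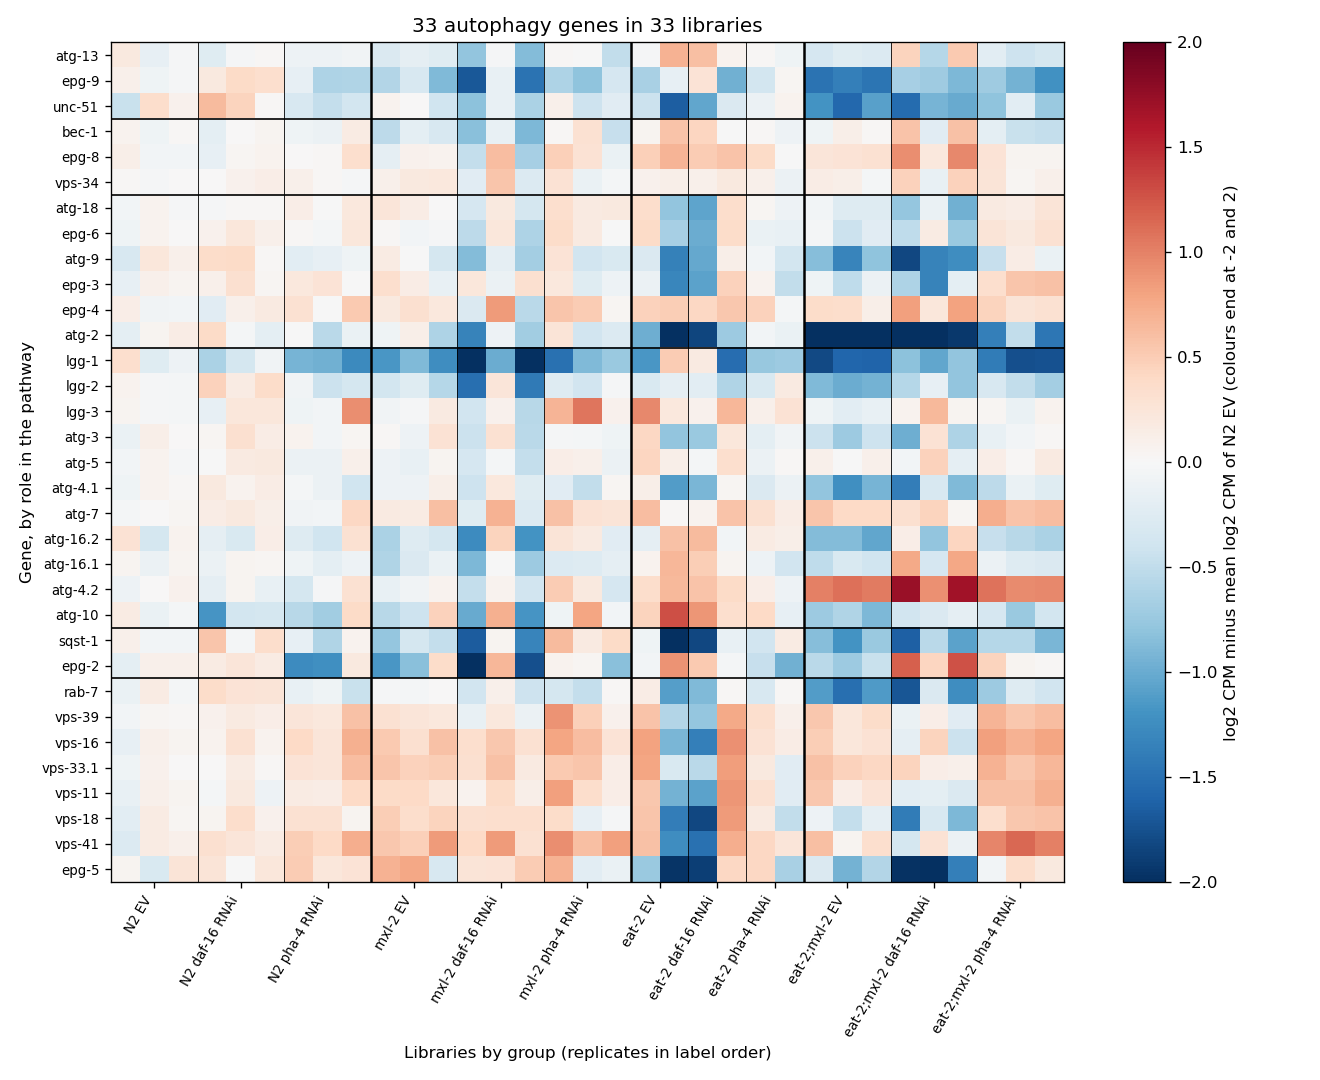
Log2 CPM of each gene (rows, ordered by role) in each of the 33 libraries (columns, by group), minus its mean in N2 on EV; colours end at -2 and 2. The 9 double mutant columns are red for atg-4.2 and blue for atg-2, and 2 of the 6 eat-2 columns (EV replicate 2 and daf-16 RNAi replicate 1) differ from the other eat-2 columns in many rows.

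Strains were compared as the mean over the 3 feedings in 1 edgeR quasi-likelihood fit, with Benjamini-Hochberg adjustment over all 17354 genes, and adjusted p-values under 0.05 were taken as calls. The double mutant differed from N2 in 12 of 33 genes (36.4%), against 25.4% of all genes tested. Of these, 10 were lower, where 11.7% of all genes were, and 2 were higher, where 13.7% were. Against eat-2, the double mutant differed in 7 genes (21.2%, beside 23% of all genes), 1 of them higher and 6 lower (11.8% of all genes). Against mxl-2 it also differed in 7 genes (beside 29.8% of all genes), 1 of them higher and 6 lower (13.6% of all genes). Both counts are near or below the background. The single mutants differed from N2 in 2 genes each (6.06%). For eat-2 these were 1 higher and 1 lower, beside 14.6% of all genes, and for mxl-2 both were lower, beside 6.75% (4.13% lower). The median log2 difference of the 33 genes between the double mutant and N2 was -0.17, beside -0.05 over all genes. With limma on log2(TPM + 1), the median of all genes was 0.07 for this comparison and 0.10 against mxl-2. On that scale the calls were 4 higher and 10 lower against N2, beside 4491 of all genes called. Against mxl-2 they were 6 higher and 5 lower, beside 5099 of all genes. The comparisons share strains: all 7 genes called against mxl-2 and 5 of the 7 called against eat-2 are also called against N2.

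Tissue markers differed between the strains as well. The summed level of 3 body wall muscle markers was 937 to 3080 CPM in N2, 1090 to 4680 CPM in mxl-2, 405 to 1630 CPM in eat-2 and 377 to 1030 CPM in the double mutant, and all 3 were called lower in eat-2 than in N2 (median log2 difference -1.42) and in the double mutant than in N2 (-1.49) and than in mxl-2 (-2.11). Of 3 pharynx markers, 2 were called lower in the double mutant than in N2 and 2 lower than in mxl-2, with sums of 51.5 to 272 CPM in N2 and 52.1 to 135 CPM in the double mutant. Sperm markers, 35 in all, summed to 184 to 1490 CPM in N2, 12.4 to 2280 CPM in mxl-2, at most 355 CPM in eat-2 and 111 to 1410 CPM in the double mutant. Of them 33 were called lower in eat-2 than in N2 and 2 in the double mutant than in N2, while 21 were called higher in the double mutant than in eat-2 and 3 lower than in mxl-2. Of 7 intestine markers, 2 were called higher and 1 lower in the double mutant than in N2, and 4 were called lower than in mxl-2, with sums of 30100 to 59400 CPM in N2 and 12200 to 46600 CPM in the double mutant. Of 3 hypodermis markers, 1 was called lower in eat-2 than in N2, 1 higher in the double mutant than in eat-2 and 1 higher than in mxl-2. Of 6 germline markers, 1 was called higher in the double mutant than in N2, and 1 higher and 2 lower than in mxl-2. Of 7 oocyte markers, 1 was called higher in the double mutant than in N2. No list was at 0 as a whole. In the eat-2 daf-16 RNAi group 2 of the 35 sperm markers were. The part of these tissues in the differences that follow was not tested.

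**Figure D2:**
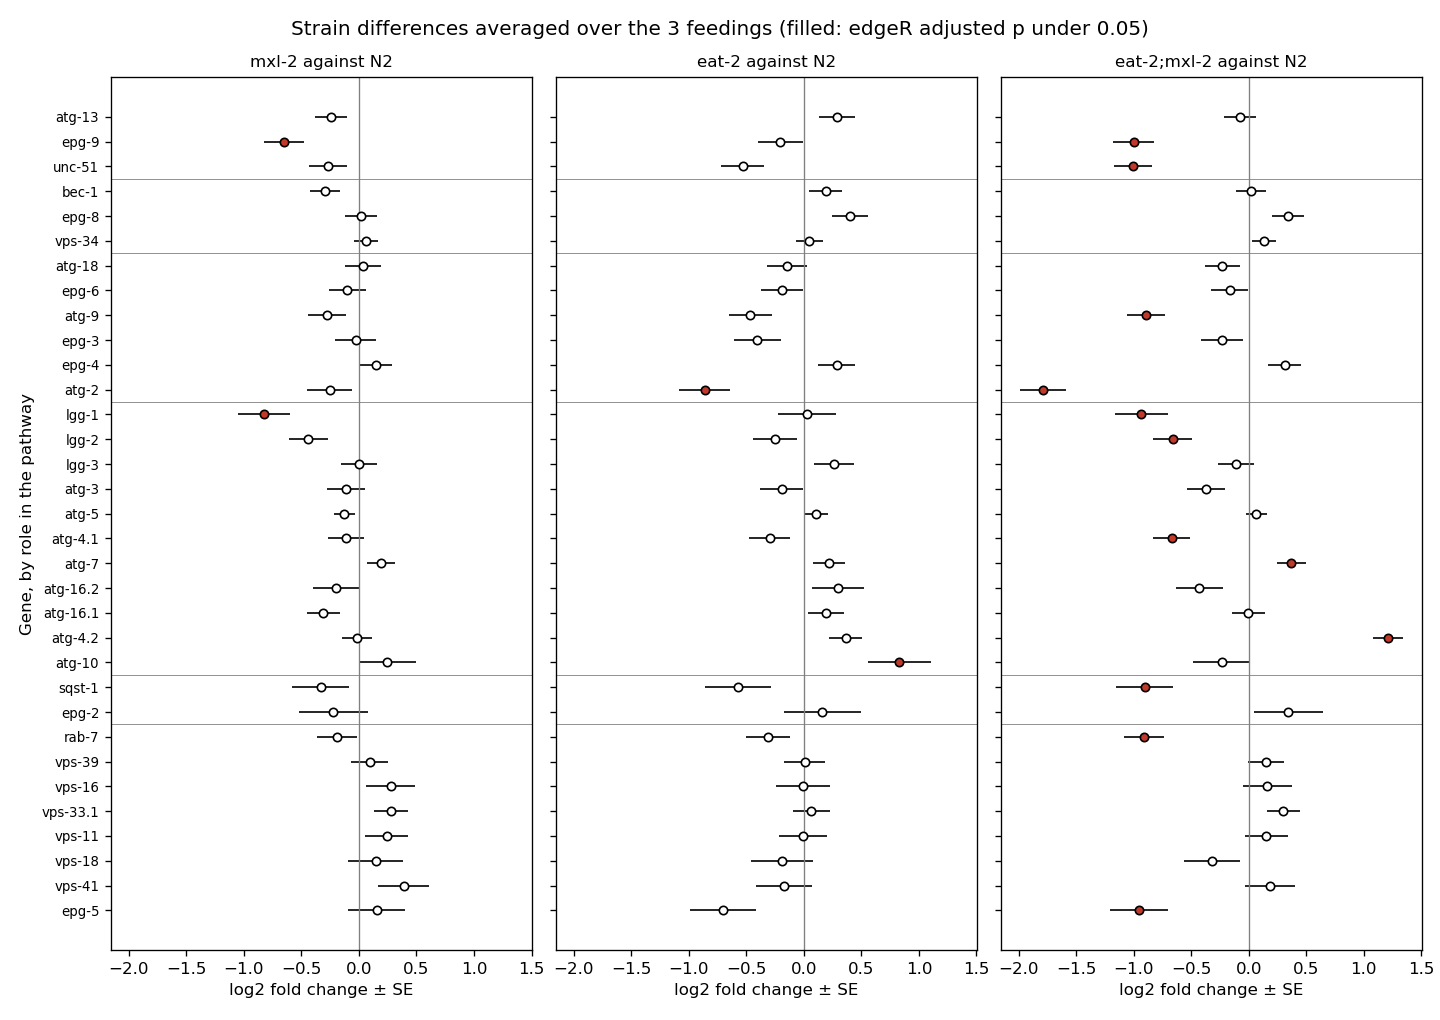
Log2 fold change with its standard error (x axis) of the 33 genes (y axis, by role) in mxl-2, eat-2 and the double mutant against N2, averaged over the 3 feedings; filled points have an edgeR adjusted p under 0.05. The filled points number 2, 2 and 12, and atg-4.2 (1.21) and atg-2 (-1.79) are the extremes in the double mutant.

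The initiation kinase complex was lower in the double mutant for 2 of its 3 measured genes. unc-51, the gene of the kinase that starts autophagosome formation (V:19995986-20004485, minus strand, WBcel235), stood at 52.6, 90.5 and 75.9 CPM in N2 on EV and at 31.2, 23.98 and 33.7 CPM in the double mutant on EV. On daf-16 RNAi it was 110.8, 97.0 and 72.6 CPM in N2 and 24.6, 37.3 and 35.2 CPM in the double mutant. On pha-4 RNAi the values were 57.2, 51.1 and 55.3 CPM and 40.8, 61.4 and 42.5 CPM. N2 and the double mutant overlapped in the libraries labelled pha-4 RNAi and on neither of the other feedings. Here and below, separation within part of the feedings compares few libraries and has no share of all genes beside it. Over the 3 feedings unc-51 was 2.00-fold lower in the double mutant than in N2 (log2 fold change -1.003 ± 0.16 SE, adjusted p = 8.39e-05) and 1.67-fold lower than in mxl-2 (adjusted p = 0.00162). Within the pha-4 RNAi libraries alone the log2 difference from N2 was -0.18 (adjusted p = 0.805). The 6 eat-2 libraries ranged from 22.8 to 74.7 CPM (median 55.5). Neither eat-2 against N2 (-0.53, adjusted p = 0.0525) nor the double mutant against eat-2 (-0.47, adjusted p = 0.0591) was called by edgeR with all libraries. DESeq2 called unc-51 lower in eat-2 than in N2, over the feedings and on EV.

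epg-9, the ATG101 gene, was the member of this complex that was lower in both strains with the mxl-2 mutation. In N2 it was 60.7, 53.02 and 55.4 CPM on EV, 64.2, 73.6 and 71.1 on daf-16 RNAi and 50.0, 36.9 and 37.0 on pha-4 RNAi. The double mutant had 20.1, 21.7 and 20.4 CPM on EV, 35.6, 34.3 and 30.2 on daf-16 RNAi and 34.2, 29.4 and 24.4 on pha-4 RNAi. All 9 double mutant libraries lay below all 9 N2 libraries; of all genes, 1.07% were lower without overlap in this way. The difference was 2.00-fold (log2 -0.999 ± 0.18, adjusted p = 0.000202). The mxl-2 libraries ranged from 17.4 to 50.6 CPM (median 36.8), overlapped those of N2, and were 1.57-fold lower on average (log2 -0.65 ± 0.18, adjusted p = 0.0276). That call was lost in 8 of the 18 fits that left out 1 library, with log2 values from -0.86 to -0.56. Without the 4 mxl-2 libraries that are low in sperm transcripts the log2 value was -0.69, with only replicate 3 of mxl-2 left on pha-4 RNAi. Against eat-2 the double mutant was lower in epg-9 as well (-0.79 ± 0.19, adjusted p = 0.00551). atg-13, the gene of the UNC-51 partner, differed by -0.08 between the double mutant and N2 and was not called by edgeR in any averaged strain comparison. epg-7, the related scaffold gene outside the list by name, was lower in the double mutant than in N2 (log2 -0.94 ± 0.18, adjusted p = 0.000492) and than in mxl-2 (-0.89, adjusted p = 0.00074).

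None of the 3 genes of the lipid kinase complex was called by edgeR with all groups in any averaged strain comparison or in any on EV. Other fits called 2 of them in averaged comparisons. epg-8 was called higher by DESeq2 in eat-2 and in the double mutant against N2, and by limma in the double mutant against N2. bec-1 and epg-8 were called higher in the double mutant than in mxl-2 by limma and with a covariate for sperm transcripts, and with that covariate bec-1 was called lower in mxl-2 than in N2. bec-1, the Beclin 1 gene, was 64.1, 57.3 and 61.9 CPM in N2 on EV, 42.6, 53.2 and 48.8 in mxl-2, 63.6 and 90.7 in eat-2, and 57.8, 65.9 and 62.1 in the double mutant. The strain ranges overlapped over all feedings: 53.4 to 68.3 CPM in N2, 32.6 to 75.4 in mxl-2, 56.6 to 90.7 in eat-2 and 44.1 to 91.4 in the double mutant. The log2 difference of the double mutant from N2 was 0.02 ± 0.13 (adjusted p = 0.925), that of mxl-2 from N2 -0.29 ± 0.13 (0.168), and that of eat-2 from N2 0.19 ± 0.14 (0.388). vps-34, the kinase itself, had the narrowest range of all 33 genes, 46.9 to 83.3 CPM over the 33 libraries. The double mutant differed from N2 by 0.13 in vps-34 and by 0.34 in epg-8, the ATG14 gene.

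Among the 6 genes of membrane supply and phagophore growth, atg-2 showed the largest difference of all 33 genes. It encodes a lipid transfer protein (X:6806763-6817266, plus strand). In N2 it stood at 78.9, 93.7 and 100.9 CPM on EV, 118.5, 88.8 and 79.3 on daf-16 RNAi and 89.9, 62.4 and 82.3 on pha-4 RNAi. Double mutant libraries held 21.8, 13.7 and 20.0 CPM on EV, 18.1, 18.9 and 23.9 on daf-16 RNAi and 35.1, 64.4 and 33.4 on pha-4 RNAi. Every double mutant library on EV and daf-16 RNAi was below every N2 and mxl-2 library, and 1 pha-4 RNAi library (64.4) was above the lowest N2 value. Over the feedings atg-2 was 3.45-fold lower in the double mutant than in N2 (log2 -1.79 ± 0.20, adjusted p = 5.75e-07), 2.89-fold lower than in mxl-2 (adjusted p = 5.4e-06) and 1.90-fold lower than in eat-2 (adjusted p = 0.00423).

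In both strains with eat-2, atg-2 stood highest in the libraries labelled pha-4 RNAi, a label that pha-4 itself goes against in the double mutant. In the eat-2 strain atg-2 was 46.3 and 20.1 CPM on EV, 25.3 and 55.01 on daf-16 RNAi, and 87.8 and 82.4 on pha-4 RNAi, the last 2 inside the range of N2 (62.4 to 118.5). eat-2 was 1.82-fold lower than N2 over the feedings (log2 -0.86 ± 0.22, adjusted p = 0.0165). Without the 2 eat-2 libraries that stand apart the value was -0.57 and not called (adjusted p = 0.0647). Within the pha-4 RNAi libraries alone eat-2 stood 0.12 above N2 in log2 and the double mutant 0.82 below it (adjusted p = 0.988 and 0.292). pha-4 RNAi against EV was 1.36 ± 0.42 in eat-2 and 1.26 ± 0.34 in the libraries labelled double mutant. Neither was called by edgeR with all groups (adjusted p = 0.112 and 0.0615), while DESeq2 called both higher. The covariate for sperm transcripts called atg-2 higher in eat-2, and a fit of only the groups compared did so in the double mutant. In N2 and mxl-2 the same contrast was -0.22 and 0.06.

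atg-9, which encodes the multispanning membrane protein of the pathway, followed a similar course. It was 76.6 to 124.9 CPM in the 9 N2 libraries (median 98.2) and 52.97 to 116.0 in those of mxl-2 (median 78.0). In the double mutant atg-9 was 53.5, 38.5 and 55.3 CPM on EV, 27.2, 38.0 and 40.6 on daf-16 RNAi, and 69.8, 106.9 and 88.1 on pha-4 RNAi, so that only the libraries labelled pha-4 RNAi overlapped N2. The averaged difference from N2 was 1.86-fold lower (log2 -0.89 ± 0.17, adjusted p = 0.00035), while within pha-4 RNAi the log2 difference was 0.03. The other 4 genes of this role were not called by edgeR in any averaged strain comparison with all libraries and groups. atg-18, a WIPI gene, was 158.7, 172.5 and 161.4 CPM in N2 on EV, 193.2, 182.1 and 164.1 in mxl-2, 209.8 and 94.9 in eat-2, and 158.4, 136.6 and 137.7 in the double mutant, with a double mutant to N2 log2 difference of -0.23 ± 0.16 (adjusted p = 0.299).

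**Figure D3:**
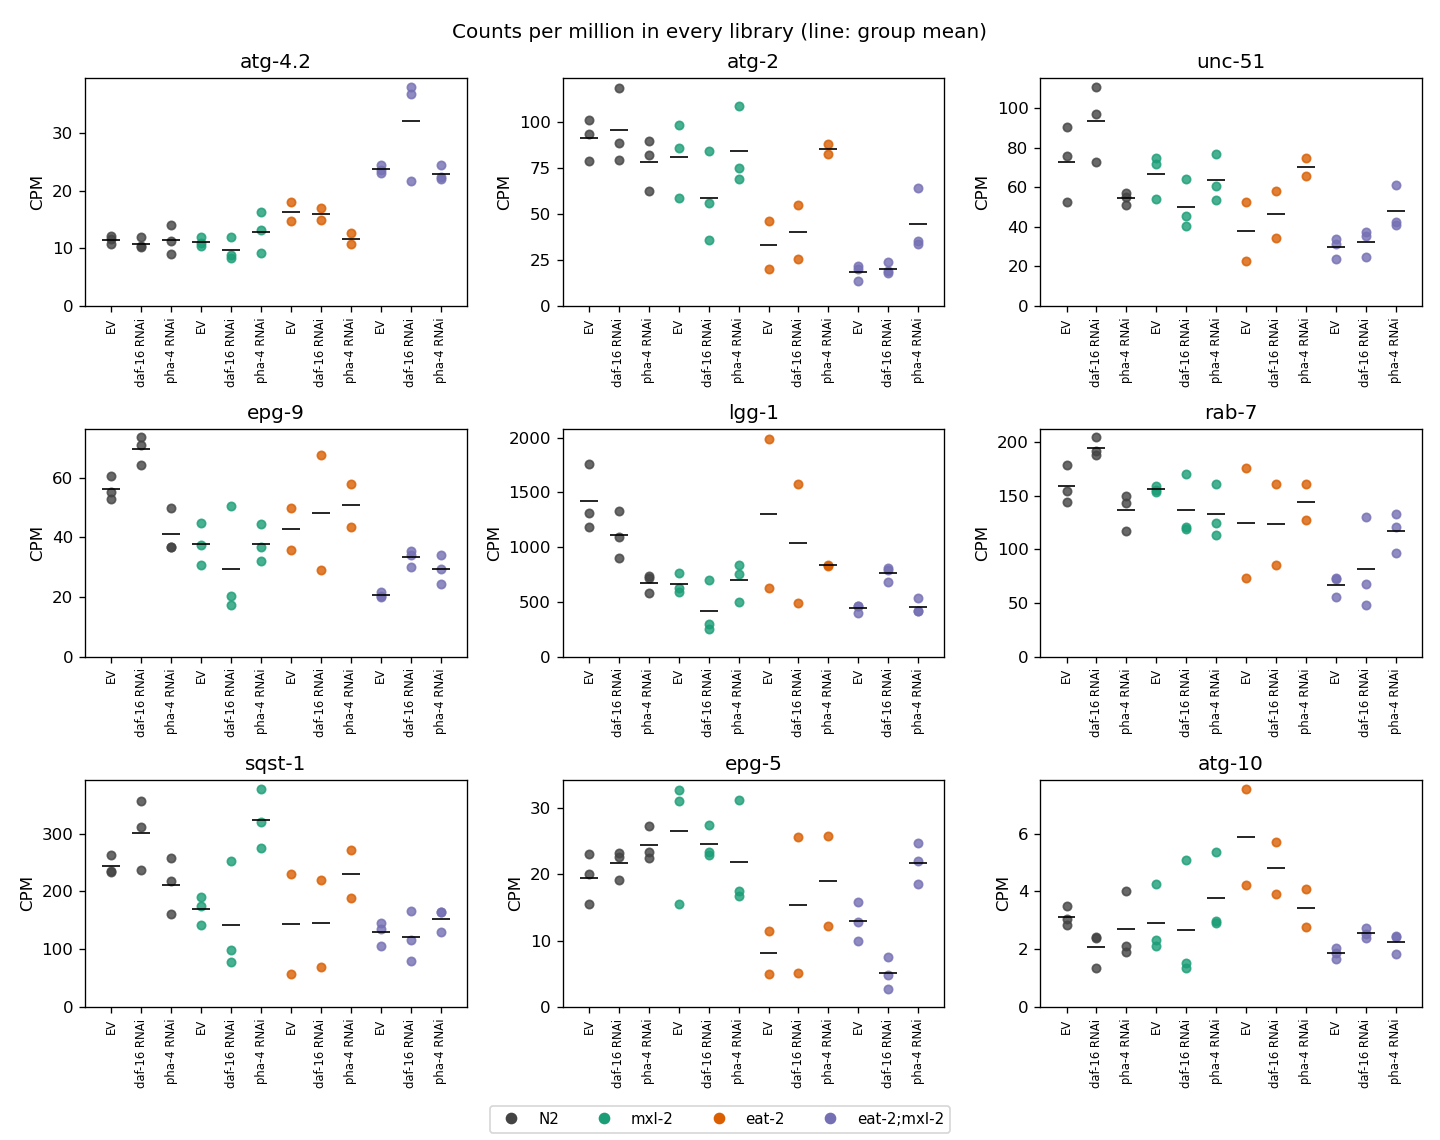
CPM of 9 of the genes in every library (points; y axis, from 0) by group (x axis), with the group mean as a line. The 9 double mutant points of atg-4.2 (21.7 to 38.1) lie above all 24 others (8.28 to 18.1), and those of atg-2 rise towards the N2 range only in the libraries labelled pha-4 RNAi.

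The conjugation system held the only gene of the 33 that separated the double mutant from every other library. atg-4.2 (IV:11668024-11671505, plus strand) encodes a cysteine protease that processes LGG proteins. Its level in the double mutant was 23.1, 24.6 and 23.7 CPM on EV, 38.1, 21.7 and 36.9 on daf-16 RNAi and 24.5, 22.1 and 22.4 on pha-4 RNAi. The other strains ranged from 9.02 to 14.1 CPM in N2 (median 11.3), 8.28 to 16.3 in mxl-2 (median 10.9) and 10.7 to 18.1 in eat-2 (median 14.8). All 9 double mutant libraries were above all 9 of N2, all 9 of mxl-2 and all 6 of eat-2, as they were for 2.49%, 2.25% and 2.12% of all genes, and so above all 24 at once, as for 0.876%. atg-4.2 was 2.31-fold higher in the double mutant than in N2 (log2 1.21 ± 0.13, adjusted p = 3.51e-07), 2.33-fold higher than in mxl-2 (1.22 ± 0.13, 3.42e-07) and 1.80-fold higher than in eat-2 (0.84 ± 0.15, 0.000349).

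These 3 calls of atg-4.2 held in every fit that left out 1 library. They also held within daf-16 RNAi alone (1.58, 1.73 and 1.01 against N2, mxl-2 and eat-2) and within pha-4 RNAi alone (1.00, 0.84 and 0.98), where it was the only one of the 33 genes called in each. Within EV edgeR called it against N2 (1.05, adjusted p = 0.00346) and mxl-2 (1.10, 0.00338) and not against eat-2 (0.54, 0.146). DESeq2 and the fit with the sperm covariate called it higher than in eat-2 on EV. Neither single mutant was called against N2 by edgeR (eat-2 0.36, adjusted p = 0.0885, and mxl-2 -0.02, 0.958). DESeq2 called atg-4.2 higher in eat-2 than in N2. Its paralogue atg-4.1 was lower in the double mutant, with 19.5 to 46.0 CPM (median 29.2) beside 38.3 to 57.6 in N2 (median 51.2), a range that overlaps (log2 -0.67 ± 0.16, adjusted p = 0.00304). The atg-4.1 exons are overlapped by another gene over 6.20% of their length.

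lgg-1 (II:6346960-6347719, minus strand) was lower in both strains with the mxl-2 mutation. In N2 it was 1762, 1188 and 1308 CPM on EV, 903.5, 1091 and 1333 on daf-16 RNAi and 734.6, 715.7 and 577.4 on pha-4 RNAi. In mxl-2 it was 622.1, 762.1 and 591.5 CPM on EV, 255.4, 702.8 and 296.0 on daf-16 RNAi, and 496.6, 754.9 and 836.5 on pha-4 RNAi. The double mutant had 399.7, 465.6 and 459.8 CPM on EV, 790.9, 681.0 and 806.1 on daf-16 RNAi, and 533.2, 414.4 and 420.0 on pha-4 RNAi. With EV or daf-16 RNAi both strains lay wholly below N2; on pha-4 RNAi the double mutant lay below N2 and mxl-2 overlapped it. The averaged log2 difference from N2 was -0.82 ± 0.23 in mxl-2 (1.77-fold lower, adjusted p = 0.0299) and -0.93 ± 0.23 in the double mutant (1.91-fold lower, adjusted p = 0.00372). The mxl-2 call was lost in 9 of the 18 fits without 1 library, and within pha-4 RNAi the mxl-2 difference was 0.04. The double mutant and mxl-2 differed by -0.11 ± 0.23, which was not called (adjusted p = 0.73).

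In eat-2, lgg-1 split with the libraries that stand apart: 622.0 and 1993 CPM on EV, 1580 and 487.1 on daf-16 RNAi, and 825.7 and 841.1 on pha-4 RNAi. With all libraries eat-2 stood 0.03 from N2 (adjusted p = 0.955) and the double mutant 0.96 below eat-2 (adjusted p = 0.00854). Without the 2 libraries the log2 difference was -0.71 for eat-2 against N2 and -0.31 for the double mutant against eat-2. lgg-2 was 203.1, 188.9 and 186.6 CPM in N2 on EV and 104.7, 97.2 and 99.7 in the double mutant, without overlap; over all feedings the ranges of 143.1 to 266.4 and 97.2 to 171.5 CPM overlapped. The averaged log2 difference was -0.66 ± 0.17 (adjusted p = 0.00589), and mxl-2 against N2 was -0.44 (adjusted p = 0.113).

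atg-10, the E2-like enzyme gene for LGG-3 (II:8659135-8659800, plus strand), showed the largest of the 33 differences between the double mutant and eat-2 with all libraries; without the 2 eat-2 libraries that stand apart atg-2 (-1.30) and rab-7 (-0.93) differed more than atg-10 (-0.87). In CPM, atg-10 was 4.22 and 7.56 in eat-2 on EV, 5.70 and 3.92 on daf-16 RNAi and 4.09 and 2.78 on pha-4 RNAi. The double mutant values were 1.88, 2.05 and 1.66 CPM on EV, 2.39, 2.53 and 2.73 on daf-16 RNAi and 2.46, 1.85 and 2.41 on pha-4 RNAi. All 9 double mutant libraries lay below all 6 of eat-2, as they did for 0.628% of all genes. The difference was 2.09-fold (log2 -1.06 ± 0.27, adjusted p = 0.00784). Its value without the 2 eat-2 libraries (-0.87) comes from a fit that leaves 1 eat-2 library on EV and 1 on daf-16 RNAi. Those libraries were set apart by these same 33 genes, so it is no independent support. eat-2 was 1.78-fold higher than N2 (0.83 ± 0.27, adjusted p = 0.0416), a call kept in 6 of 15 fits without 1 library. Without both of those libraries the value was 0.56 and not called. atg-10 had the fewest reads of the 33 genes, down to 34 counts in 1 library, and 3.61% of its exon length is shared with another gene.

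Of the other conjugation genes, atg-7, for the E1-like enzyme, was higher in the double mutant than in N2 (0.37 ± 0.12, adjusted p = 0.0311), with ranges of 50.9 to 81.6 and 47.4 to 66.0 CPM that overlap and a call kept in 8 of 18 fits without 1 library. atg-16.2, one of the ATG16L-type genes, was lower in the double mutant than in eat-2 (-0.73), with 15.2 to 42.2 CPM beside 27.6 to 48.6. That call was lost without either of the eat-2 libraries that stand apart. atg-3, atg-5, lgg-3 and atg-16.1 were not called by edgeR in any averaged strain comparison with all libraries. atg-5 was called higher in the double mutant than in mxl-2 by limma and with the sperm covariate, and atg-3 lower than in N2 with the covariate. Without the 2 eat-2 libraries that stand apart, atg-3 and lgg-3 were called lower in the double mutant than in eat-2.

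Of the cargo receptors, sqst-1 was lower in the double mutant than in N2, and epg-2 was not called by edgeR in any averaged strain comparison with all libraries. sqst-1 was 262.7, 235.9 and 233.8 CPM in N2 on EV and 135.7, 106.1 and 145.7 in the double mutant. On daf-16 RNAi it was 356.7, 236.9 and 311.1 CPM in N2 and 79.0, 166.9 and 116.5 in the double mutant, and on pha-4 RNAi 218.7, 160.3 and 256.9 and 163.8, 163.6 and 129.2. The strains overlapped only in the libraries labelled pha-4 RNAi. Over the feedings the difference was 1.87-fold (log2 -0.91 ± 0.25, adjusted p = 0.00949), while on EV alone it was -0.92 ± 0.43 and not called (adjusted p = 0.183). mxl-2 against N2 was -0.33 (adjusted p = 0.456). In the eat-2 strain the values were 229.3 and 56.6 CPM on EV, 69.2 and 220.0 on daf-16 RNAi and 187.8 and 272.1 on pha-4 RNAi, the 2 lowest being the libraries that stand apart. epg-2 ranged from 21.4 to 220.4 CPM over all libraries, and its 2 highest values were among the double mutant libraries on daf-16 RNAi (208.7, 123.8 and 220.4 CPM). limma called epg-2 higher in the double mutant than in mxl-2. With the sperm covariate epg-2 was called lower in eat-2 and mxl-2 than in N2, higher in the double mutant than in either single mutant, and higher in the test of the mxl-2 effect on eat-2.

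Of the fusion genes, rab-7 and epg-5 were called lower in the double mutant than in N2. On EV rab-7 was 144.2, 178.3 and 154.4 CPM in N2, 155.3, 153.3 and 159.0 in mxl-2, 176.0 and 73.6 in eat-2, and 72.8, 55.4 and 72.0 in the double mutant. The eat-2 library that stands apart (73.6) lay next to the double mutant there, and all others lay well above it. On daf-16 RNAi rab-7 was 204.3, 191.3 and 188.3 CPM in N2 and 48.5, 130.1 and 67.2 in the double mutant. In the libraries labelled pha-4 RNAi it was 143.4, 149.2 and 116.7 CPM in N2 and 96.2, 132.5 and 121.2 in the double mutant, where the strains overlapped and rab-7 was not called (log2 -0.23, adjusted p = 0.766). Over the feedings rab-7 was 1.88-fold lower in the double mutant than in N2 (log2 -0.91 ± 0.17, adjusted p = 0.000477), 1.64-fold lower than in mxl-2 (0.00332) and 1.51-fold lower than in eat-2 (0.0275), the last in 10 of 15 fits without 1 library. Another gene overlaps 5.94% of its exon length.

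epg-5 was 15.5 to 27.2 CPM in N2 (median 22.6) and 15.5 to 32.7 in mxl-2 (median 23.3). In the double mutant epg-5 was 15.7, 10.01 and 12.9 CPM on EV, 4.90, 2.80 and 7.47 on daf-16 RNAi, and 18.5, 24.6 and 22.0 on pha-4 RNAi. It was lowest on daf-16 RNAi, where it lay below every N2 library, while 1 library labelled EV and all 3 labelled pha-4 RNAi lay within the N2 range. The averaged log2 difference was -0.95 ± 0.25 from N2 (adjusted p = 0.00727) and -1.10 ± 0.25 from mxl-2 (0.00217). On daf-16 RNAi alone it was -2.09 from N2 (adjusted p = 0.00259), and on pha-4 RNAi alone -0.16. The 6 genes of the HOPS tether, vps-11, vps-16, vps-18, vps-33.1, vps-39 and vps-41, were not called by edgeR in any averaged strain comparison with all libraries and groups, with log2 differences between the double mutant and N2 from -0.32 (vps-18) to 0.30 (vps-33.1). limma called vps-33.1 higher in the double mutant than in N2, and the sperm covariate called it higher than in eat-2. With only the groups compared in the fit, vps-33.1 was called higher than N2 in mxl-2 and in the double mutant, vps-16 and vps-41 higher in mxl-2 than in N2, and vps-18 lower in the double mutant than in mxl-2. In eat-2 they were low together in the libraries that stand apart: vps-33.1 was 72.4 and 34.2 CPM on EV, and 28.9 and 74.8 CPM with daf-16 RNAi. Without these libraries eat-2 differed from N2 by 0.37 in vps-33.1, 0.38 in vps-11 and 0.42 in vps-16. That fit leaves 1 eat-2 library on EV and 1 on daf-16 RNAi. The libraries were set apart by these same genes, so these values are no independent support.

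The single mutant results rest on few libraries. For eat-2 against N2 the count of called genes was 10 without eat-2 EV replicate 1 and 12 without daf-16 RNAi replicate 2. It was 0 without any 1 of eat-2 EV replicate 2, daf-16 RNAi replicate 1 and pha-4 RNAi replicate 1, and 1 without any 1 of N2 EV replicates 2 and 3, daf-16 RNAi replicate 1 and pha-4 RNAi replicates 1 and 2. No share of all genes called is given for fits without libraries, so their counts have no background beside them. Without both libraries that stand apart, 1 eat-2 library is left on EV and 1 on daf-16 RNAi. In that fit the double mutant differed from eat-2 by -1.30 in atg-2, -0.80 in unc-51, -0.79 in atg-9, -0.81 in sqst-1 and -0.74 in epg-5. atg-4.2 was higher there. For mxl-2 against N2 the count was 5 without mxl-2 daf-16 RNAi replicate 2. It was 0 without any 1 of N2 EV replicate 1, N2 daf-16 RNAi replicate 3, N2 pha-4 RNAi replicate 1, mxl-2 EV replicate 3 and mxl-2 daf-16 RNAi replicates 1 and 3, and 1 without any 1 of N2 daf-16 RNAi replicate 2, N2 pha-4 RNAi replicate 2, mxl-2 EV replicate 1 and mxl-2 pha-4 RNAi replicates 1 and 2. It was also 5 without the 4 mxl-2 libraries low in sperm transcripts (EV replicate 3, daf-16 RNAi replicate 2 and pha-4 RNAi replicates 1 and 2), where bec-1, lgg-2, epg-9, lgg-1 and epg-2 were called lower.

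Whether losing mxl-2 changed the effect of eat-2 was tested as a difference of differences, averaged over the feedings. In all, 2 of 33 genes were called, beside 6.89% of all genes, 1 of them higher and 1 lower. For atg-4.2 the eat-2 effect was larger by 0.86 ± 0.20 in log2 where mxl-2 was lost (adjusted p = 0.00787), with eat-2 against N2 at 0.36 and the double mutant against mxl-2 at 1.22. For atg-10 it was lower by 1.31 (-1.31 ± 0.37, adjusted p = 0.0298), with eat-2 against N2 at 0.83 and the double mutant against mxl-2 at -0.48. atg-2, with -0.67 ± 0.29, was not called (adjusted p = 0.174). Without the 2 eat-2 libraries that stand apart the term was 0.86 for atg-4.2, -1.06 for atg-2, -0.76 for rab-7 and -0.91 for epg-5. It was negative for the HOPS genes vps-11, vps-16, vps-18, vps-33.1 and vps-41. That fit leaves 1 eat-2 library on EV and 1 on daf-16 RNAi.

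On EV alone, 9 of the 33 genes differed between the libraries labelled double mutant and N2 (27.3%, beside 12.1% of all genes), 1 of them higher (atg-4.2) and 8 lower (7.15% of all genes). With limma on log2(TPM + 1), where the median of all genes on EV was 0.12 beside -0.05, 2 were higher and 6 lower. limma called 2440 of all genes there. The 6 largest were atg-2 (4.93-fold lower, adjusted p = 0.000166), lgg-1 (3.21-fold lower, 0.00711), epg-9 (2.72-fold lower, 0.0031), unc-51 (2.46-fold lower, 0.00389), rab-7 (2.38-fold lower, 0.00819) and atg-4.2 (2.07-fold higher, 0.00346). The other 3 were atg-9, atg-4.1 and lgg-2, and all 9 are among the 12 of the averaged comparison. On EV the call of lgg-2 was kept in 0 of 6 fits without 1 library, and those of atg-9 and atg-4.1 in 1 of 6 each. The count was 5 without double mutant EV replicate 2. Against eat-2, 5 genes were lower and none higher (18.4% of all genes called, 8.89% lower): atg-10 (3.16-fold), lgg-1 (2.96-fold), atg-16.2 (2.26-fold), epg-9 (2.07-fold) and atg-16.1 (1.73-fold). That count was 1 without eat-2 EV replicate 2, 1 without double mutant EV replicate 1 or 3, 2 without double mutant EV replicate 2, and 8 without eat-2 EV replicate 1. Against mxl-2, 6 genes were called (7.86% of all genes): atg-4.2 higher, and atg-2, rab-7, unc-51, atg-4.1 and atg-9 lower (4.25% of all genes), with 2 left without double mutant EV replicate 2. Neither single mutant had a called gene on EV in edgeR. Of all genes, edgeR called 0.789% in eat-2 and 0.0288% in mxl-2. Without adjustment, 6 of the 33 in eat-2 and 1 in mxl-2 had an edgeR p under 0.05. DESeq2 called 2 in eat-2, unc-51 and atg-2, both lower, beside 1914 of all genes. In mxl-2 it called 0, beside 177 of all genes.

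**Figure D4:**
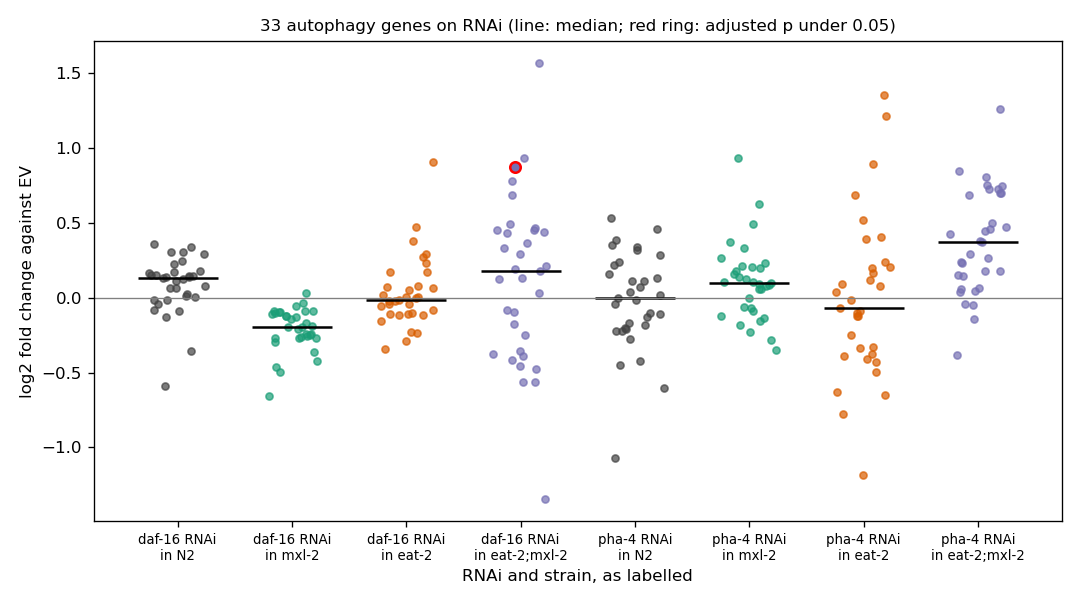
Log2 fold change of the 33 genes (points) on daf-16 or pha-4 RNAi against EV in each strain as labelled (x axis), with the median as a line and the called gene ringed. The median is 0.37 for the libraries labelled pha-4 RNAi in the double mutant and between -0.19 and 0.18 elsewhere, and atg-16.1 is the 1 called point, a call lost with RLE scaling.

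Few of these genes were called for the RNAi feedings within a strain by edgeR with all groups, which does not show that the others were unchanged. In the double mutant, fits of only the groups compared called 7 genes for daf-16 RNAi and 18 for pha-4 RNAi. Those fits called 6406 and 7309 of all genes. daf-16 RNAi against EV gave no called gene in N2, mxl-2 or eat-2, with none at an unadjusted p under 0.05 (0.248%, 0.127% and 0.0115% of all genes were called). DESeq2 called none of the 33 there either, beside 134, 464 and 12 of all genes. In mxl-2, 32 of the 33 log2 differences were below 0 (median -0.19, beside 0.01 over all genes), and 3 genes were called without mxl-2 daf-16 RNAi replicate 2. In the double mutant 1 gene was called (9.55% of all genes): atg-16.1, with 14.5, 16.8 and 15.7 CPM on EV, and 34.7, 16.4 and 35.1 CPM with daf-16 RNAi (log2 0.88 ± 0.25, adjusted p = 0.0288). daf-16 RNAi replicate 2 lay within the EV range. The atg-16.1 call was lost with RLE scaling, where epg-5 was called lower instead, with no filter on low counts, with limma and with the sperm covariate. It was kept with DESeq2 and with only the groups compared. It was also lost without any 1 of the 3 EV replicates or daf-16 RNAi replicates 1 and 3, and 5 genes were called without daf-16 RNAi replicate 2. epg-2 (1.57 ± 0.53, adjusted p = 0.057) and epg-5 (-1.35 ± 0.44, adjusted p = 0.0535) were the largest differences there and were not called.

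With all groups in the edgeR fit, pha-4 RNAi gave no called gene in any strain (0.323%, 0.887%, 1.17% and 1.49% of all genes in N2, mxl-2, eat-2 and the double mutant). Without adjustment, 1, 2, 4 and 6 genes had a p under 0.05. DESeq2 called 0, 0, 1 and 1, the called gene being atg-2, beside 353, 398, 1094 and 722 of all genes. In the libraries labelled double mutant, 29 of the 33 log2 differences were above 0 (87.9%, beside 51.1% of all genes; median 0.37, beside 0.01), and the label check of pha-4 above applies to their direction. The mean over the 3 feedings weights the 3 groups of a strain equally and does not depend on which of them carries which label. For the difference between the double mutant's response and that of eat-2, DESeq2 called 1 gene for daf-16 RNAi and 0 for pha-4 RNAi, beside 274 and 1856 of all genes. In edgeR, 3 and 2 genes had an unadjusted p under 0.05. After adjustment edgeR called no gene for daf-16 RNAi or for pha-4 RNAi, where 0.225% and 1.07% of all genes were called. Without eat-2 daf-16 RNAi replicate 1 the first count was 4, and without eat-2 EV replicate 1 it was 2. The largest of these differences were epg-5 for daf-16 RNAi (-2.25 ± 0.70, adjusted p = 0.156) and epg-2 for pha-4 RNAi (1.93 ± 0.82, adjusted p = 0.173).

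Other genes of the pathway were taken from 4 lists. Of 19 regulators of autophagy, 11 were called lower and 2 higher in the double mutant than in N2 (median log2 difference -0.61, beside -0.05 over all genes), where 11.7% of all genes were lower and 13.7% higher. The list holds mxl-2, the gene deleted in that strain, which was the lowest (-3.98), followed by aak-2, a catalytic subunit of AMPK (-1.07 ± 0.18, adjusted p = 0.000154), and hlh-30, the TFEB homologue (-1.01 ± 0.14, 1.06e-05). hlh-30 was 74.9 to 118.8 CPM in N2 (median 94.5) and 28.9 to 72.6 in the double mutant (median 47.0), without overlap, as 1.07% of all genes were lower. Against mxl-2, 12 regulators were lower and 3 higher (29.8% of all genes called), and against eat-2, 5 lower and 2 higher (23% called). In eat-2, 2 regulators were lower than in N2, mml-1 (-0.76) and aak-2 (-0.70), beside 14.6% of all genes called, and in mxl-2 only mxl-2 itself, beside 6.75%.

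Of 23 other autophagy and mitophagy genes measured of 24 listed, 4 were higher and 4 lower in the double mutant than in N2; these and the next counts stand beside 13.7% of all genes higher and 11.7% lower. The largest were tax-6, a calcineurin A gene (-1.38 ± 0.13, adjusted p = 6.04e-08), dct-1, the BNIP3-type mitophagy receptor gene (-1.05 ± 0.24, 0.00254), and cup-5, the mucolipin 1 homologue (0.55 ± 0.11, 0.000937). Of 21 V-ATPase genes, whose products acidify lysosomes, 5 were higher and none lower, with vha-8 (0.48), unc-32 (0.45) and vha-1 (0.36) the largest and a list median of 0.09. Of 22 genes for lysosomal proteases, lipases and membrane proteins, 1 was higher and 5 lower (median -0.15): lipl-1 was higher by 2.47 ± 0.43 in log2, while lipl-3 (-2.27 ± 0.59) and lipl-4 (-1.91 ± 0.42), genes of the same lipase family, were lower. In the test of the mxl-2 effect on eat-2 (6.89% of all genes called), 1 regulator was higher and 1 lower, no V-ATPase gene was called, and 3 lysosomal genes were higher and 2 lower, with cpr-1 (2.45) and cpr-5 (2.01), both cathepsin B-type protease genes, the largest. On daf-16 RNAi against EV in the double mutant, 6 of the 22 lysosomal genes were higher and none lower (9.55% of all genes called; median 0.91, beside 0.09 over all genes).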

How the data were processed

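RNA with poly(A) tails from whole animals was sequenced after preparation with the TruSeq stranded kit, per the labels' protocols. Raw read counts and TPM values of 17907 genes in 33 libraries are used as the authors deposited them. Every deposited gene reaches a count of at least 10 in some library. The submitters' processing notes name FastQC, Trimmomatic, STAR 2.4.2a, RSEM 1.2.23 and featureCounts 1.4.6-p5 and the build WBcel235, without roles. Whether counting used strand is not given in the sources used here, so reads in the exons that 10 of the 33 genes share with other genes are uncertain. Coordinates are from the Ensembl 115 annotation of WBcel235.

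The deposited counts were tested with edgeR 4.0.16 (R 4.3.3): filterByExpr on the groups, which left 17354 genes, TMM scaling, 1 quasi-likelihood fit of 12 group means, and Benjamini-Hochberg adjustment over all genes. Errors given as ± after a fold change are standard errors and after a level SDs. CPM values of single genes use the library size multiplied by its TMM factor (0.782 to 1.56), as the tests do, and log2 CPM uses a prior count of 2. The summed levels of tissue markers use the total counts of a library without that factor. DESeq2 1.42.0 on the counts and limma 3.58.1 on log2(TPM + 1) were alternatives. The fit was also run on simulated counts, drawn from a common mean per gene and so without replicates that stand apart as here. Members and lists were chosen with earlier results of these data known. By rule, lgg-1, lgg-2, sqst-1, bec-1, unc-51, atg-18, up to 6 called genes with the largest change in each comparison and every called gene of an interaction are given in full; other genes are given by ranges and counts, and up to 3 genes of a list in a comparison. Alternatives were other scaling, no filter, the other tools, only the groups compared, a replicate block, a covariate for sperm transcripts (mean log2 CPM of 31 major sperm protein genes), and each library left out. Fits without libraries that stand apart or within 1 feeding were added after the data were seen.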

Additional observations from a re-analysis of the deposited data

Results flagged for a closer look

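In 2 of the 33 genes (6.06%, beside 6.89% of all genes called in the same test) the effect of eat-2 differed with mxl-2 lost and with mxl-2 present, by the interaction term of the edgeR fit averaged over the 3 feedings. For atg-4.2 the difference was 0.86 ± 0.20 in log2 (adjusted p = 0.00787), from 0.36 in eat-2 against N2 and 1.22 in the double mutant against mxl-2. It was called in all 33 fits that left out 1 library (0.73 to 0.93). Without the 2 eat-2 libraries that stand apart it was 0.86, in a fit that leaves 1 eat-2 library on EV and 1 on daf-16 RNAi. Those libraries were set apart by these same 33 genes, so this value is no independent support. Without the 4 mxl-2 libraries low in sperm transcripts it was 0.96, with only replicate 3 of mxl-2 left on pha-4 RNAi. It was also called with DESeq2, with limma on TPM and with the covariate for sperm transcripts.

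For atg-10 the difference was -1.31 ± 0.37 (adjusted p = 0.0298), from 0.83 in eat-2 against N2 and -0.48 in the double mutant against mxl-2. It was called in 30 of 33 fits without 1 library (-1.51 to -1.02) and lost without N2 pha-4 RNAi replicate 2, mxl-2 EV replicate 3 or eat-2 pha-4 RNAi replicate 1. Without the 2 eat-2 libraries it was -1.13, and without the 4 mxl-2 libraries -0.92, with the same limits as for atg-4.2. It was not called with limma on TPM or with the covariate for sperm transcripts. The part of tissue differences and of the library numbers in either result was not tested.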

How the results depend on the processing

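Counts below are called genes of the 33. The number of all genes called moves with the setting too. For eat-2 against N2 over the feedings it was 2542 with edgeR, 3554 with DESeq2 and 800 with limma. No share of all genes is given for fits without libraries or within daf-16 RNAi or pha-4 RNAi alone. RLE scaling moved none of the 21 counts by more than 1.5 times, though for daf-16 RNAi in the double mutant it called epg-5 lower in place of atg-16.1, and no filter on low counts moved 1. On EV, eat-2 against N2 gave 2 with DESeq2, 1 with the sperm covariate and 1 without the 2 eat-2 libraries that stand apart; the double mutant against N2 gave 20 with only the groups compared, a setting in which 8442 of all genes were called against 2101; against eat-2 it gave 0 with limma on TPM, 3 with the sperm covariate, 0 with only the groups compared and 1 without the 2 eat-2 libraries; against mxl-2 it gave 3 with limma and 12 with only the groups compared (3613 of all genes called, against 1364). Averaged over feedings, eat-2 against N2 gave 5 with DESeq2, 1 with limma, 4 without the 2 eat-2 libraries and 0 within daf-16 RNAi or pha-4 RNAi alone. mxl-2 against N2 gave 0 with limma, 5 with the covariate, 5 with only the groups compared, 5 without the 4 mxl-2 libraries and 0 within pha-4 RNAi. The double mutant gave 1 within pha-4 RNAi against each of N2, eat-2 and mxl-2. Against eat-2 it gave 14 without the 2 eat-2 libraries (5 of the 7 among them) and 1 within daf-16 RNAi, and against mxl-2 11 with limma, 12 with the covariate, 11 without the 4 mxl-2 libraries and 11 within daf-16 RNAi.

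For daf-16 RNAi, the mxl-2 count was 2 without the 4 mxl-2 libraries, and the double mutant count was 0 with no filter, 3 with DESeq2, 0 with limma, 0 with the covariate and 7 with only the groups compared (6406 of all genes called, against 1658). For pha-4 RNAi, N2 gave 1 with only the groups compared, eat-2 gave 1 each with DESeq2, the covariate and without the 2 eat-2 libraries, and the double mutant gave 1 with DESeq2 and 18 with only the groups compared (7309 of all genes called, against 259). The eat-2 by mxl-2 term gave 1 with limma and 13 without the 2 eat-2 libraries; the difference in daf-16 RNAi response gave 1 with DESeq2, and that in pha-4 RNAi response 1 with only the groups compared and 1 without the 2 eat-2 libraries. The cause was not tested. Within pha-4 RNAi the direction turned for atg-2 in eat-2 against N2 (0.12), lgg-1 in mxl-2 against N2 (0.0422) and atg-9 in the double mutant against N2 (0.0282). The split of higher and lower calls for the double mutant against mxl-2 moved from 1 and 6 to 6 and 5 with limma on TPM (5099 of all genes called, against 5167). It moved to 6 and 6 with the covariate (6683 of all genes). Against N2 it was 4 and 10 with limma (4491, against 4408). Against eat-2 it was 4 and 4 with the covariate (5387, against 4000).

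Without 1 library, the counts on EV ranged from 0 to 2 (eat-2 against N2), 0 to 0 (mxl-2 against N2), and, for the double mutant, 5 to 8 against N2, 1 to 8 against eat-2 and 2 to 5 against mxl-2. Averaged, they ranged from 0 to 12, 0 to 5, 11 to 13, 6 to 12 and 7 to 13 in the same order. The double mutant against eat-2 gave 12 without eat-2 daf-16 RNAi replicate 2, and against mxl-2 it gave 13 without mxl-2 daf-16 RNAi replicate 2 and 12 without double mutant daf-16 RNAi replicate 2. The ranges were 0 to 0, 0 to 3, 0 to 0 and 0 to 5 for daf-16 RNAi and 0 to 0, 0 to 0, 0 to 2 and 0 to 0 for pha-4 RNAi in N2, mxl-2, eat-2 and the double mutant, and 1 to 3, 0 to 4 and 0 to 0 for the eat-2 by mxl-2 term and the differences in daf-16 and pha-4 RNAi response. pha-4 RNAi in eat-2 gave 2 without eat-2 EV replicate 1. Where this left 1 eat-2 library in a group, that library is assumed to vary like the other groups.

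Deviations from the group means showed no pairing by replicate number. Their median r was -0.03 over 168 pairs of groups' libraries with the same number and 0.00 over 330 with different numbers. In eat-2 the library numbers in the labels skip some values, so its replicate numbers need not match those of the other strains. With a replicate block, the double mutant against eat-2 on EV gave 2 and eat-2 against N2 over the feedings gave 1, and the other 19 counts stayed within 1.5 times. Depth limits atg-10 most, with counts from 34. Groups of 2 or 3 limit every comparison within a feeding.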
